A study of Homo sapiens with 17 samples.

Results

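The nuclear-encoded genes of the mitochondrial respiratory chain were followed in ribosome profiling and mRNA sequencing of HEK293 cells after genome editing. Members were chosen by gene symbol alone, as protein-coding genes of the NDUFA, NDUFB, NDUFC, NDUFS, NDUFV, UQCR, COX4I, COX5, COX6, COX7, COX8 and ATP5 families together with CYC1 and SDHA to SDHD, with the NDUFAF assembly factors left out. The rule gave 91 genes of 17283 with a count at either time point. They comprised 40 genes named for complex I, 4 of complex II, 10 of complex III, 17 of complex IV and 20 of complex V. NDUFA4 bears a complex I symbol but its protein is now placed in complex IV, and it was kept under its symbol.

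HEK293 is a line of human embryonic kidney cells grown in culture. The cells were electroporated with a Cas9 ribonucleoprotein that cuts, or with catalytically dead dCas9 that binds without cutting, each carrying the same guide (sgIntron) to intron 12 of JAK2. Cells were collected after 36 or 72 h, and every group at a time point therefore shared the line, the guide and the electroporation and differed in the nuclease. The 17 libraries comprised 3 mRNA libraries of Cas9 cells at 36 h and 2 libraries in each of the other 7 groups. At 36 h footprint and mRNA libraries with the same letter came from 1 lysate. The guides were synthetic at 36 h and transcribed in vitro at 72 h, and the aligner differed too, so the time points are given side by side and were not tested against each other. A replicate was a pool of small electroporations into 1 plate, so p-values measure the spread between such plates of 1 line.

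The respiratory chain passes electrons from NADH (complex I) and succinate (complex II) through ubiquinone, complex III and cytochrome c to oxygen at complex IV. Complexes I, III and IV pump protons across the inner mitochondrial membrane, and ATP synthase (complex V) uses the gradient to make ATP. Complexes I, III, IV and V combine subunits of mitochondrial DNA with the nuclear-encoded ones described here, and all complex II subunits are nuclear-encoded. The latter are translated in the cytosol, where ribosome footprints report on them, and are imported. Cultured lines such as HEK293 draw on glycolysis as well as on respiration.

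Counts over all genes ranged from 25095505 to 42825662 per mRNA library and from 689636 to 8864455 per footprint library. The shallowest footprint libraries were dCas9 e and Cas9 a at 36 h, with 689636 and 957811 counts. Of 7 HEK293 marker genes, 6 exceeded 1 CPM (counts scaled to 1000000 per library) in mean mRNA, and PAX2 was near 0. Of 9 markers of other cell types 1, the collagen gene COL1A1, exceeded 1 CPM. In bulk samples, fewer cells of a type and less RNA per cell cannot be told apart.

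At least 1 count was found for 82 members at 36 h and for 87 at 72 h. A mean of 20 counts in each library type was required for testing, and 82 members of 9016 genes passed at 36 h and 83 of 10896 at 72 h. COX7B, at both time points, and NDUFA6, at 36 h, had no listed transcript and were not analysed here. NDUFC2-KCTD14, ATP5MF-PTCD1, UQCRHL and ATP5MGL share reads with NDUFC2, ATP5MF, UQCRH and ATP5MG, so the values of both genes in each pair are uncertain. The first 4 were left out of the sums and spreads by complex, and their partners were kept. Both genes of each pair stayed in the counts of members, where shared reads can count for both.

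The other members without a testable count were paralogs of expressed subunits, several of them tissue-restricted. COX6A2 and COX7A1, the heart and skeletal muscle isoforms, and COX6B2, a testis isoform, had 0 counts in all 17 libraries. COX4I2 had 0 counts at 36 h and 3 counts at 72 h, all in 1 of 8 libraries. COX8C had 1 count at 72 h, COX7B2 had 16 counts in 4 of 8 libraries and NDUFA4L2 had 5 counts in 3 of 8, and all 3 were at 0 at 36 h. A floor of 3 counts corresponded to 0.0673 to 0.116 CPM in the mRNA libraries and to 0.359 to 4.83 CPM in the footprint libraries, and these floors cover counting error only.

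Their widely expressed partners were abundant. COX4I1 footprints in dCas9 cells at 72 h were 327 ± 4.03 CPM (SD, n = 2), those of COX6A1 were 382 ± 6.58 CPM and those of COX6B1 were 236 ± 11.7 CPM. COX7A2 reached 185 ± 13.9 CPM and COX8A 141 ± 8.62 CPM in the same libraries. Beside the paralogs with few or no counts named above, the widely expressed isoform held nearly all counts at both time points. The related COX7A2L was expressed too, with mean footprints of 42.3 CPM in dCas9 cells at 72 h. The c-ring subunit of ATP synthase is encoded by 3 genes for 1 mature protein, and all were translated, with footprints of 229 CPM for ATP5MC1, 410 CPM for ATP5MC2 and 354 CPM for ATP5MC3.

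Levels of different genes were compared per length, as CPM per 100 counted codons. Complex IV had the highest median footprint level in dCas9 cells at 72 h, 230 CPM per 100 codons, and complex II the lowest, 87.0. Within complex I the footprint level ran from 10.7 for NDUFV3 to 338 for NDUFA13, a 31.6-fold range. NDUFV3 had 2 listed transcripts at 72 h, and its level is that of the one kept, with 454 counted codons. The level per length, and so the range, depends on that choice, which was not tested. The range was 4.97-fold in complex III, from UQCRC2 at 49.9 to UQCR10 at 248, and 14.3-fold in complex IV, from COX7A2L at 44.5 to COX7C at 637. COX7A2L is a factor of respiratory supercomplexes.

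**Figure D1:**
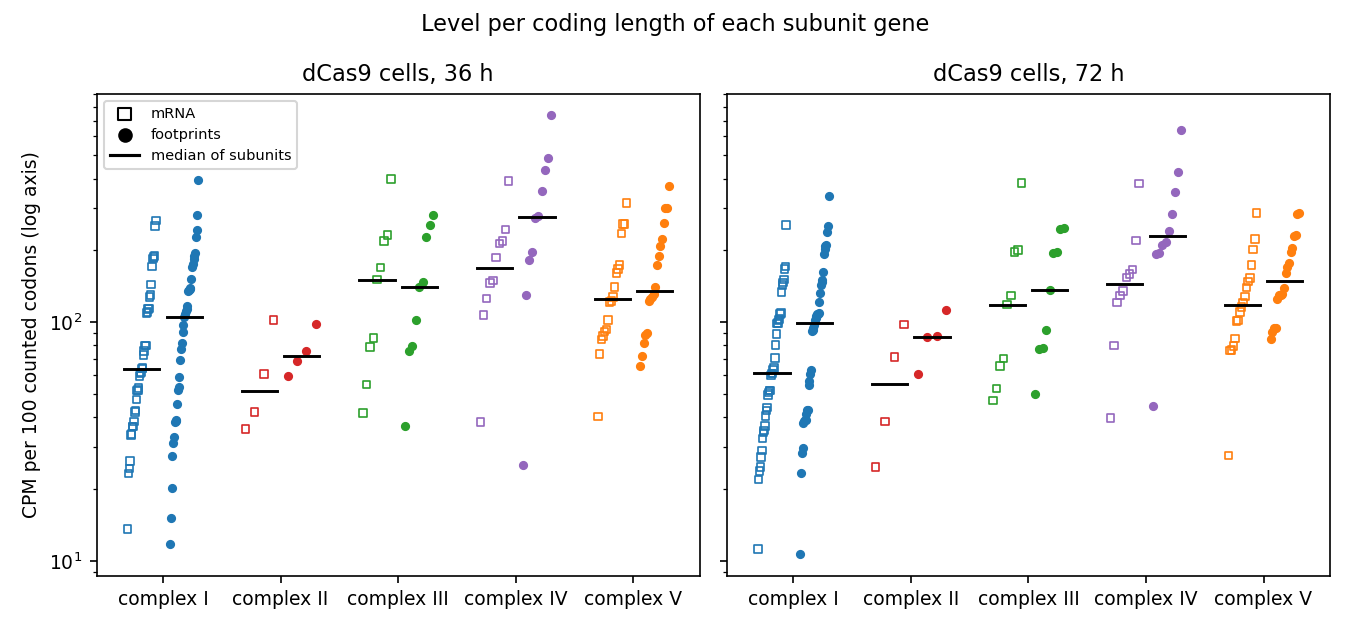
mRNA (open squares) and footprint (filled circles) level of each member per 100 counted codons (log axis) in dCas9 cells at 36 h (left) and 72 h (right), by complex, each point the mean of 2 libraries and each line the median of the members. At 72 h complex II footprints lie within a 1.86-fold range while its mRNAs span 3.95-fold, and complex I holds the widest footprint range, 31.6-fold, for the transcripts kept.

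The core subunits of ATP synthase differed from each other in level. ATP5F1B, the catalytic beta subunit, had footprints of 284 ± 0.52 CPM per 100 codons and mRNA of 224 ± 10.1 (SD, n = 2) in dCas9 cells at 72 h. ATP5F1A, the alpha subunit, had 160 and 140, and ATP5F1C, the gamma subunit of the central stalk, 85.0 and 85.3. The alpha and beta subunits are each present in several copies per enzyme and gamma in a single one. NDUFS1, the largest core subunit of complex I, had 23.4 and 24.7, whereas NDUFAB1, the mitochondrial acyl carrier protein that is also a complex I subunit, had 122 and 61.1.

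In complexes II, III and V at 72 h footprints per codon lay closer together than mRNAs, and in complexes I and IV they did not. Complex V footprints spanned 3.38-fold, from ATP5F1C at 85.0 to ATP5MC3 at 287, and its mRNAs spanned 10.4-fold, from ATP5F1D at 27.6 to ATP5F1E at 287, again in CPM per 100 codons in dCas9 cells at 72 h. Complex II footprints spanned 1.86-fold, from SDHB at 60.4 ± 3.53 to SDHC at 113 ± 4.79, and its mRNAs spanned 3.95-fold, from SDHC at 24.7 ± 0.28 to SDHB at 97.6 ± 3.68 (SD, n = 2). The order of the ends was thus reversed between the assays. The same held at 36 h, when complex II footprints spanned 1.64-fold (59.6 for SDHB to 98.0 for SDHC) and mRNAs 2.86-fold (35.8 for SDHC to 102 for SDHB), although SDHA, SDHB and SDHD footprints lay within their spread of one another. In complex III the mRNA range was 8.15-fold against 4.97-fold in footprints. In complex I the footprint range, 31.6-fold, was wider than the mRNA range of 22.8-fold, and in complex IV 14.3-fold was set against 9.61-fold. In complex V at 36 h the SD of the log2 level was 0.757 in footprints and 0.753 in mRNA of dCas9 cells, so its footprints were not closer by that measure, although their range was 5.64-fold against 7.87-fold. These ranges are descriptions and were not tested.

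The ratio of footprints to mRNA in dCas9 cells, each relative to all tested genes, asks which members had more or fewer footprints per mRNA read than a typical gene. Both were counted over the same coding region, so the ratio is a density per coding length and not a number of ribosomes per mRNA. At 72 h the ratio was above that of the typical gene for 56 of 83 members (67.5%) and below it for 7 (8.43%), beside 32.7% of all tested genes above and 37.8% below (edgeR quasi-likelihood test, false discovery rate 0.1). At 36 h it was above for 36 of 82 members (43.9%) and below for 10 (12.2%), beside 23.6% and 24.6% of all tested genes. The median log2 ratio of the members was 0.39 at 72 h and 0.29 at 36 h, against -0.06 and -0.01 over all tested genes. Without the mRNA library dCas9 d fewer members were called at 36 h, and fewer of all tested genes were called too. The members' share then came closer to that of all tested genes, in a fit with only dCas9 e left for mRNA. In each of the 4 pairings of a dCas9 footprint with a dCas9 mRNA library at 36 h, the members' median log2 ratio lay above that of all tested genes. The margin was 0.18 to 0.48.

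The members far from the middle of this distribution were compared at their start codons, where the ribosome begins. The start codon with 10 bases before it and 12 after it is printed 5′ to 3′ for 4 members of high and 3 of low ratio, from the GENCODE 44 transcripts on GRCh38, with the start codon in capitals.
ATP5F1D: cgccgctgccATGctgcccgccgcg
SDHC: ggaacccaagATGgctgcgctgttg
NDUFB6: cagcggcgacATGacggggtacact
NDUFA13: tactgcgagtATGgcggcgtcaaag
UQCRH: gtagccagacATGggactggaggac
ATP5ME: cagggacaagATGgtgccaccggtg
SDHB: aggagccaagATGgcggcggtggtc
The start codons lie at chr19:1241851-1241853 (ATP5F1D, plus strand), chr1:161314406-161314408 (SDHC, plus), chr9:32573058-32573060 (NDUFB6, minus), chr19:19516239-19516241 (NDUFA13, plus), chr1:46303767-46303769 (UQCRH, plus), chr4:674245-674247 (ATP5ME, minus) and chr1:17054017-17054019 (SDHB, minus). All 7 are the first coding bases of their transcripts, after 5′ leaders of 100 (ATP5F1D), 25 (SDHC), 99 (NDUFB6), 14 (NDUFA13), 69 (UQCRH), 29 (ATP5ME) and 13 bases (SDHB).

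Short leaders were common in the set. The median 5′ leader of the members was 59 bases and that of all tested genes 137 bases. The letters ATGGCGGC at the start codon, the core of the TISU element known from mRNAs with very short leaders, stood in 13 of 83 members (15.7%) and in 460 of 10549 tested genes with a start context (4.36%), read on the transcript strand only. They were found in 9 of 39 members of complex I, 1 of 4 of complex II and 3 of 10 of complex III, and in 0 of 10 of complex IV and 0 of 20 of complex V. A purine 3 bases before the start codon was present in 96.4% of members and 86.0% of tested genes. The log2 ratio at 72 h had a median of 0.43 in the 13 members with ATGGCGGC, ranging from -0.69 to 1.08, and of 0.35 in the other 70, ranging from -0.80 to 2.24. SDHB and NDUFA2 were the ends of the first range, and NDUFA13, which carries the letters too, was at 1.02, so they stood in genes of high and of low ratio alike.

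ATP5F1D, the delta subunit of the ATP synthase central stalk, had the highest ratio. Its footprints per mRNA were 4.57 and 4.81 in the dCas9 libraries d and e at 36 h and 5.04 and 4.41 in e and f at 72 h, where 1 is the typical gene. The log2 ratio was 2.20 ± 0.24 (SE, adjusted p = 5e-06) at 36 h and 2.24 ± 0.13 (5.8e-10) at 72 h by edgeR. All 4 footprint libraries lay within 4.41 and 5.04. At 36 h each was divided by the mRNA library of the same letter, and at 72 h by the mean of both dCas9 mRNA libraries. The 72 h values of this and the following genes therefore show no spread between mRNA libraries.

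SDHC, which anchors succinate dehydrogenase in the membrane and helps bind its heme, was second at 72 h and on average over the time points, and NDUFB6 was second at 36 h. Its footprints per mRNA were 2.86 and 2.63 at 36 h and 4.69 and 4.42 at 72 h in dCas9 cells, a log2 ratio of 1.46 ± 0.18 and 2.19 ± 0.15 (SE). NDUFB6, an accessory subunit of the complex I membrane arm, gave 2.56 and 3.65 at 36 h and 3.08 and 3.30 at 72 h. NDUFA13, also known as GRIM-19, gave 2.19, 2.09, 2.04 and 2.01 in the same order, the narrowest spread of these 4 genes in values so formed. ATP5MGL, which shares reads with its parent gene ATP5MG, was at 0.76 and 1.29 on the log2 scale.

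UQCRH, the hinge protein that joins cytochrome c1 to cytochrome c, had the lowest ratio averaged over the time points on the log2 scale, with footprints per mRNA of 0.477 and 0.236 at 36 h and 0.606 and 0.672 at 72 h. Its log2 ratio was -1.37 ± 0.19 at 36 h and -0.64 ± 0.11 at 72 h (SE), and the copy UQCRHL, with which it shares reads and an identical start context, was at -0.79 and -0.80. Because of the shared reads, the ratios of both genes are uncertain. ATP5ME, the e subunit of the ATP synthase membrane part, gave 0.597, 0.436, 0.636 and 0.668. SDHB, the iron-sulfur subunit of complex II, gave 0.515, 0.638, 0.593 and 0.645, so all 4 values lay below 1 while those of SDHC were all 2.63 or more. UQCRB, a ubiquinone-binding subunit of complex III, was at -0.25 on the log2 scale at 36 h, which did not pass the test, and at -0.53 at 72 h.

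**Figure D2:**
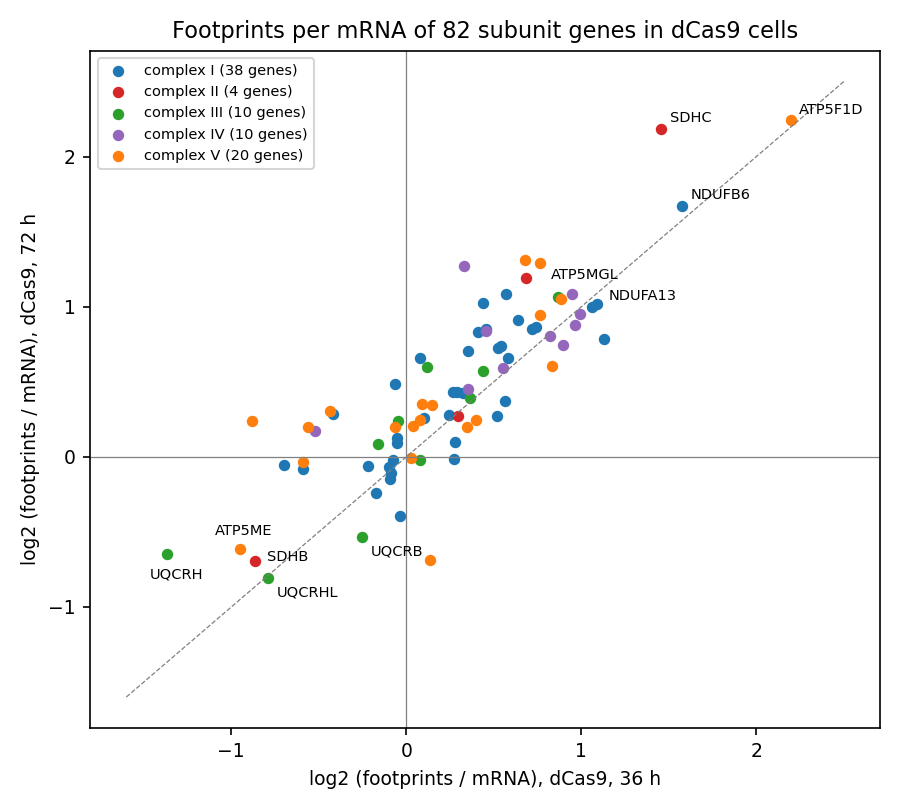
Log2 ratio of footprints to mRNA in dCas9 cells at 36 h (x axis) and 72 h (y axis) for the 82 members tested at both time points, coloured by complex, with equal values on the dashed line. ATP5F1D and SDHC lie at the upper right and UQCRH at the lower left.

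By complex, members of complex IV stood highest at both time points, with 8 of 10 above the typical gene and 0 below at 36 h (median log2 ratio 0.69) and 9 of 10 and 0 at 72 h (0.82). Complex II had 3 above and 1 below at each time point, the 1 being SDHB. Complex I had 15 above and 2 below at 36 h (median 0.28) and 26 and 1 at 72 h (0.43). Complex V had 7 and 5 (0.11) and then 13 and 2 (0.25), and complex III 3 and 2 (0.01) and then 5 and 3 (0.16). Beside these counts, 23.6% of all tested genes lay above and 24.6% below at 36 h, and 32.7% and 37.8% at 72 h. At 36 h complexes III and V lay nearer to those shares than complex IV did, and no complex was tested against them. Across the 82 members the ratio at 36 h and at 72 h had a Pearson r of 0.85 and a Spearman rho of 0.86, against 0.88 and 0.86 over 8970 tested genes, and genes are not independent replicates. The members' counted coding regions were short, with a median of 122 codons at 72 h against 460 for all tested genes. Over all tested genes the ratio at 72 h correlated with counted length at rho -0.31 and with coding GC content at 0.35, and within the members at -0.15 and 0.34. The part of length and GC in the members' ratio was not tested beyond the removal of the GC trend, after which 59 members lay above and 8 below at 72 h, beside 36.2% and 41.6% of all tested genes.

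At 36 h, Cas9 cutting was followed by no called change in any member. In footprints 0 of 82 members passed the false discovery rate of 0.1 by edgeR, as for all tested genes (0.0%). By DESeq2 0 members passed, beside 0.577% of the 7967 genes to which it gave an adjusted p. At an unadjusted p under 0.05, 4 members were higher and 2 lower in Cas9 cells, or 4.88% and 2.44% of the members beside 4.9% and 4.66% of all tested genes. In mRNA 0 members passed by edgeR and by DESeq2 (0.0% of all tested genes called by edgeR) and 0 had an unadjusted p under 0.05, against 0.288% of all tested genes. In translational efficiency, the Cas9 to dCas9 ratio of footprints relative to that of mRNA, 0 members passed by either tool. Of all tested genes 0.0% passed by edgeR and 0.0111% by DESeq2. At an unadjusted p under 0.05 by edgeR, 5 members were higher and 0 lower, beside 3.11% and 3.19% of all tested genes.

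The median log2 difference of the members at 36 h was 0.03 in footprints, -0.06 in mRNA and 0.08 in translational efficiency, against 0.02, 0.00 and 0.01 over all tested genes. Summed over the set, footprints were 15463 and 15495 CPM in the Cas9 libraries and 14667 and 15472 CPM in the dCas9 libraries, and the groups overlapped. Summed mRNA was 12222, 11952 and 11552 CPM in Cas9 and 11479 and 13098 CPM in dCas9 cells, again with overlap.

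The widest footprint differences at 36 h, which did not pass the test, were in COX7A2L (log2 0.71 ± 0.33, SE) and NDUFA2 (0.59 ± 0.19) on the higher side and ATP5MK (-0.90 ± 0.37) and ATP5F1E (-0.77 ± 0.25) on the lower. NDUFA2, a subunit of the complex I matrix arm, had 138 and 130 CPM in Cas9 and 90.5 and 85.3 CPM in dCas9 libraries, with no overlap. ATP5F1E, the small epsilon subunit of the central stalk, had 76.0 and 55.3 against 89.7 and 140 CPM, also apart, with the 2 dCas9 libraries far from each other. Both genes were named for their wide differences, and the share of all tested genes with groups apart was not counted. The adjusted p of NDUFA2 and of ATP5F1E was 0.40. The widest mRNA differences were smaller, from -0.41 ± 0.21 for NDUFA3 and -0.31 ± 0.23 for SDHD to 0.10 for NDUFA9 and 0.13 for NDUFA12, and in translational efficiency COX7A2L (0.78) and NDUFA3 (0.67) stood opposite ATP5MK (-0.88) and ATP5F1E (-0.66). Leaving out footprint library dCas9 d, the deepest, gave 4 called members in footprints (ATP5F1E, NDUFC1, NDUFS3 and UQCRH) and 1 in translational efficiency (ATP5F1E), and leaving out Cas9 c gave ATP5MK alone in footprints. Of all tested genes, 10.2% and 5.26% were called without dCas9 d in footprints and in translational efficiency and 3.58% without Cas9 c in footprints, so the members' 4.88%, 1.22% and 1.22% lay below those shares.

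At 72 h the footprints of the chain again showed no called change, while 8 mRNAs changed. Footprints had 0 of 83 members called by edgeR and by DESeq2 (0.0% of all tested genes by edgeR), with 1 member higher and 0 lower at an unadjusted p under 0.05, beside 1.75% and 1.88% of all tested genes. Their median log2 difference was -0.02, against 0.00 over all tested genes. The widest were NDUFV2 (0.26 ± 0.12, SE), ATP5F1E (0.22 ± 0.13), COX7A2L (-0.27 ± 0.17) and ATP5ME (-0.24 ± 0.14). Summed footprints were 15264 and 15629 CPM in Cas9 and 15547 and 15426 CPM in dCas9 cells.

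In mRNA at 72 h, 4 of 83 members (4.82%) rose and 4 (4.82%) fell in Cas9 cells by edgeR, beside 0.422% of all tested genes increased and 5.2% decreased. COX6C, ATP5PB, ATP5F1A and NDUFA1 rose, and SDHC, NDUFS6, NDUFA8 and ATP5F1D fell. At an unadjusted p under 0.05, 22 members (26.5%) were higher and 5 (6.02%) lower, beside 5.62% and 11.4% of all tested genes. Without the Cas9 mRNA library a only SDHC was called (1.2% of members, beside 1.01% of all tested genes in that fit), and without b 4 members (4.82%, beside 6.15%). Without the dCas9 mRNA library a 17 members were called (20.5%, beside 7.63%), without b 18 (21.7%, beside 22.7%), and without either dCas9 footprint library 3 (3.61%, beside 3.75% and 3.72%).

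SDHC mRNA fell furthest. It measured 14.6 and 21.7 CPM in the Cas9 libraries a and b and 36.8 and 37.4 CPM in the dCas9 libraries, from 526, 749, 1335 and 1666 counts, so every Cas9 value lay below every dCas9 value, a condition for naming called genes here. The log2 fold change was -1.03 ± 0.15 (SE, edgeR adjusted p = 0.0012), or 0.49 of the dCas9 level, and each of its 5 listed transcripts gave between -1.17 and -1.03. SDHC footprints did not follow. They were 176 and 165 CPM in Cas9 and 174 and 164 CPM in dCas9 libraries, a log2 difference of 0.01 (adjusted p = 1). Its footprints per mRNA were 9.67 and 9.08 in the Cas9 libraries, above the 4.69 and 4.42 of the dCas9 libraries. Both values of a group were divided by the mean of its mRNA libraries, so they show no spread between mRNA libraries.

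SDHC was also the 1 member called in translational efficiency at 72 h, with 0.698% of all tested genes increased and 0.0184% decreased. Its log2 difference was 1.04 ± 0.21 (SE, adjusted p = 0.041), in the same direction in all 16 pairings of Cas9 and dCas9 libraries, which the naming of called genes required. The call was lost when any 1 of the 4 footprint libraries or the Cas9 mRNA library a was left out (adjusted p from 0.13 to 0.37), with a log2 difference of 0.79 or more in each. At 36 h SDHC mRNA lay between 48.7 and 57.0 CPM in all 5 libraries, with overlapping groups and a log2 difference of -0.02. The gene lies at chr1:161314381-161363206 on the plus strand of GRCh38, and the counts cover its coding exons.

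The other complex II mRNAs did not pass the test. SDHA, the flavoprotein that oxidizes succinate, had 387 and 398 CPM in Cas9 and 467 and 455 CPM in dCas9 cells (log2 -0.23, adjusted p = 0.16), SDHB 298 and 301 against 262 and 248 (0.23, 0.21), and SDHD, the second membrane anchor, 64.8 and 60.1 against 56.0 and 51.5 (0.22, 0.33). The per-codon mRNA range of complex II in Cas9 cells at 72 h was 9.47-fold, from SDHC at 12.1 to SDHB at 115, while its footprints remained within 1.80-fold, from 63.0 to 114 CPM per 100 codons. In dCas9 cells the corresponding ranges were 3.95-fold and 1.86-fold.

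The remaining decreases were in complexes I and V. NDUFS6, a zinc-binding subunit of the complex I matrix arm, had 104 and 120 CPM in Cas9 and 155 and 145 CPM in dCas9 mRNA libraries (log2 -0.43 ± 0.10, SE, adjusted p = 0.027), and its footprints were 248 and 258 against 254 and 247 CPM. NDUFA8, an intermembrane-space subunit of complex I, had 36.9 and 41.7 against 52.3 and 53.3 CPM in mRNA (-0.43 ± 0.11, 0.049) and 108 and 102 against 94.6 and 97.8 CPM in footprints. ATP5F1D, the gene with the highest ratio above, had 30.8 and 29.3 against 46.0 and 36.3 CPM in mRNA (-0.45 ± 0.13, 0.061) and 200 and 190 against 208 and 181 CPM in footprints. The call was lost in 2 of 16 alternatives for NDUFS6, 4 for NDUFA8 and 6 for ATP5F1D. In all 3 the mRNA groups did not overlap, which was a condition for naming called genes here, and in footprints those of NDUFS6 and ATP5F1D did. The share of all tested genes with such groups was not counted.

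Of the increases COX6C was the widest. This small complex IV subunit had mRNA of 119 and 105 CPM in Cas9 and 70.0 and 81.3 CPM in dCas9 cells (log2 0.57 ± 0.11, SE, adjusted p = 0.010), with footprints of 124 and 130 against 138 and 133 CPM. All its 8 listed transcripts gave 0.57 in mRNA, and at 36 h its log2 difference was -0.01. ATP5PB, the b subunit of the peripheral stalk, had 367 and 358 against 279 and 293 CPM in mRNA (0.34 ± 0.09, 0.054), and ATP5F1A 938 and 871 against 728 and 766 CPM (0.28 ± 0.08, 0.075). NDUFA1, a membrane-arm subunit of complex I encoded on the X chromosome, had 116 and 109 against 93.2 and 81.2 CPM (0.37 ± 0.11, 0.093), with footprints of 96.4 and 110 against 102 and 110 CPM. The mRNA groups of all 4 genes lay apart, again a condition for naming them. The calls of NDUFA1 and ATP5F1A were lost in 11 and 9 of 16 alternatives, among them mRNA libraries fitted alone (adjusted p = 0.22 and 0.27), that of ATP5PB in 5 and that of COX6C in 1. On GRCh38 the 7 genes other than SDHC lie at chr5:1801407-1816048 (NDUFS6), chr9:122144058-122159779 (NDUFA8), chr19:1241746-1244825 (ATP5F1D), chr8:99873200-99893707 (COX6C), chr1:111448864-111462773 (ATP5PB), chr18:46080248-46104334 (ATP5F1A) and chrX:119871832-119876662 (NDUFA1). In translational efficiency COX6C was at -0.66 ± 0.17 with an adjusted p of 0.11, which did not pass.

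**Figure D3:**
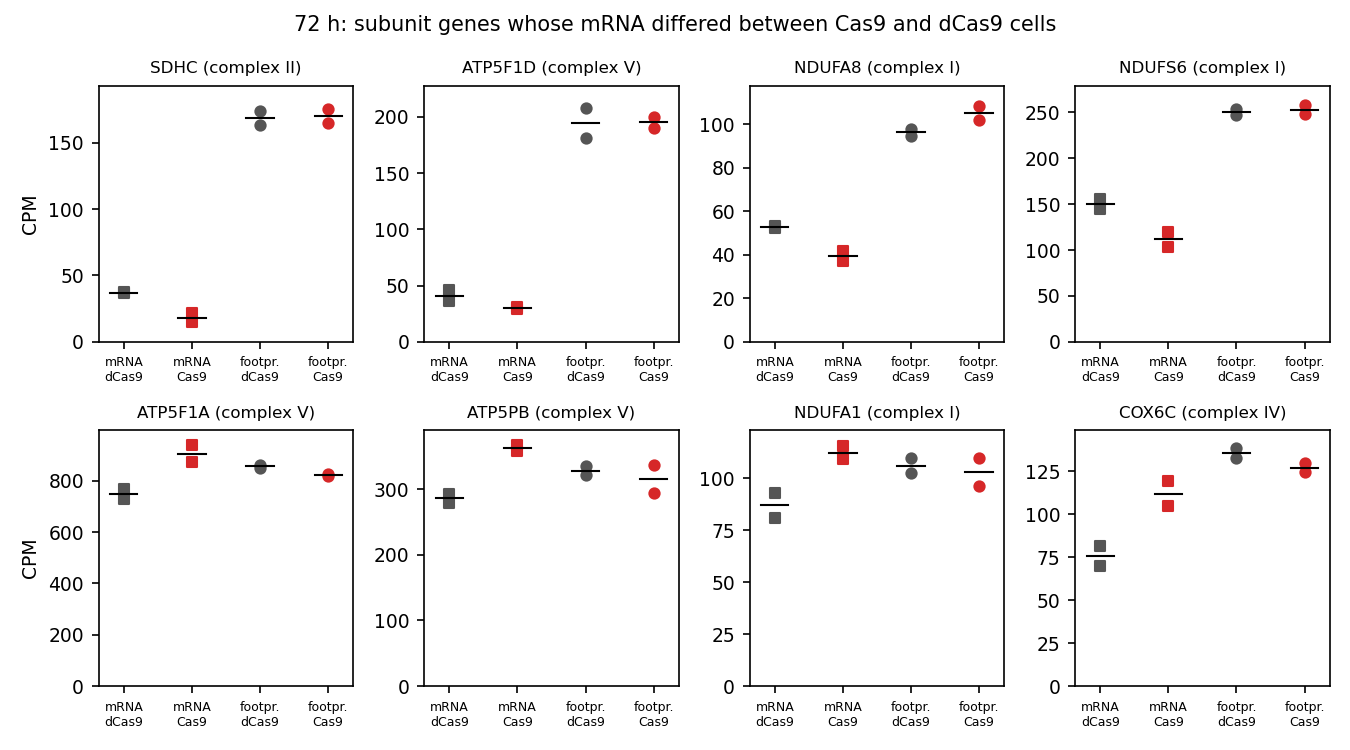
Level (CPM) in each library at 72 h of the 8 members called in mRNA, with mRNA as squares, footprints as circles, dCas9 in grey, Cas9 in red and group means as lines. The mRNA points of Cas9 and dCas9 lie apart in each gene, which was a condition for naming a called gene. SDHC mRNA lies at 14.6 and 21.7 CPM in Cas9 cells against 36.8 and 37.4 CPM in dCas9 cells with footprints between 164 and 176 CPM in all 4 libraries.

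The smaller differences lay mostly on 1 side. Of the 83 tested members, 70 had a log2 mRNA difference above 0 at 72 h and the median was 0.16, against 5755 of 10896 and 0.02 for all tested genes. In each of the 4 pairings of a Cas9 with a dCas9 mRNA library the members' median lay above that of all tested genes, by 0.09 to 0.21. At 36 h 57 of 82 members lay below 0, with a median of -0.06, and the members' median lay above that of all tested genes in 2 of 6 pairings. Translational efficiency at 72 h was below 0 in 64 of 83 members, with a median of -0.17 against 0.00. In translational efficiency, 12 members (14.5%) were lower and 5 (6.02%) higher at an unadjusted p under 0.05, beside 3.52% and 7.66% of all tested genes.

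**Figure D4:**
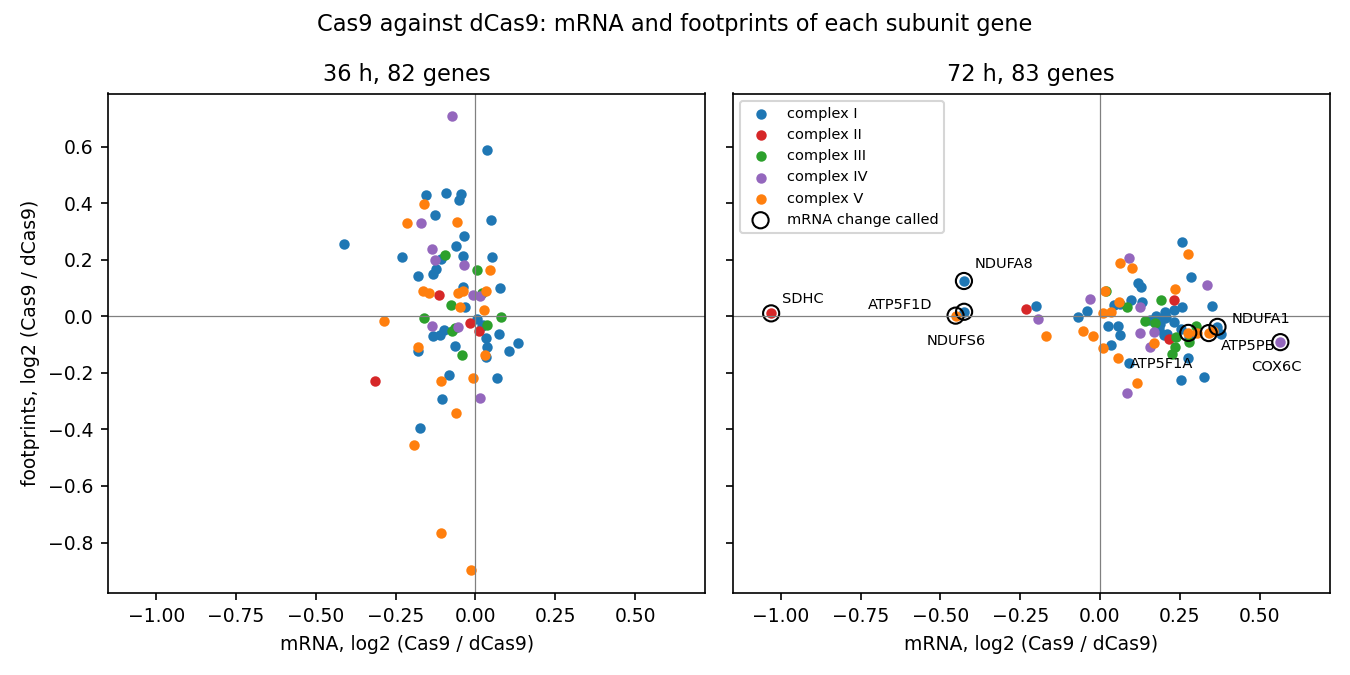
Log2 difference of Cas9 against dCas9 in mRNA (x axis) and in footprints (y axis) for each tested member, 36 h on the left and 72 h on the right, coloured by complex, with the 8 called mRNAs ringed. At 72 h 70 of 83 members lie right of 0 and SDHC lies farthest left at -1.03, while the footprint differences have a median of -0.02.

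All 10 tested members of complex III lay above 0 in mRNA at 72 h, with a median of 0.21 and 0 called, and so did 34 of 39 of complex I (median 0.19), 8 of 10 of complex IV (0.13) and 16 of 20 of complex V (0.06). Complex II was divided, with 2 of 4. As sums over the complex, mRNA of complex I was 4369 and 4276 CPM in Cas9 and 4128 and 3783 CPM in dCas9 cells, of complex III 1727 and 1690 against 1572 and 1455, of complex IV 1391 and 1377 against 1350 and 1219 and of complex V 4401 and 4357 against 4054 and 3966. In these 4 complexes the groups did not overlap, and the log2 difference of the means was between 0.11 and 0.17. Complex II went the other way, 765 and 780 against 821 and 792 CPM (log2 -0.06). With 2 libraries against 2 the smallest p that a two-sided exact permutation test of a sum allows is 0.333, and none was made. The corresponding footprint sums differed by 0.02 or less on the log2 scale in each complex.

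**Figure D5:**
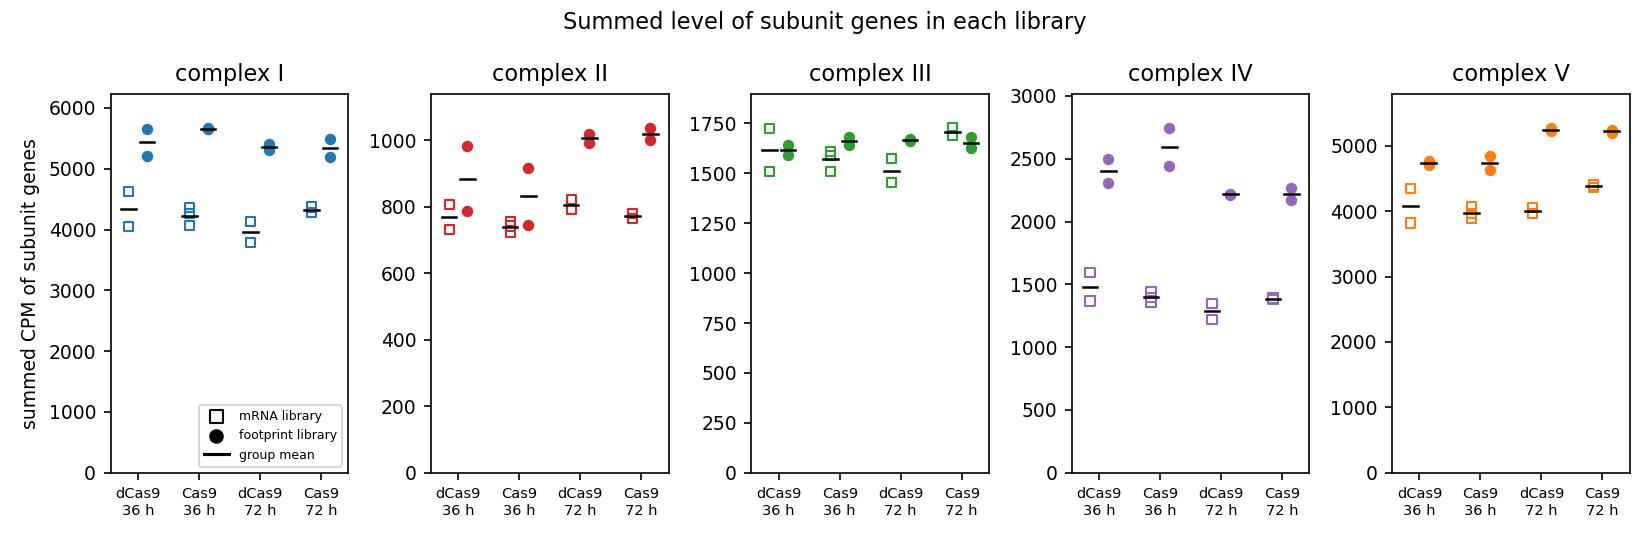
Summed CPM of the members of each complex in all 17 libraries, 1 panel per complex, with mRNA as open squares, footprints as filled circles and group means as lines. At 72 h the mRNA sums of complexes I, III, IV and V are higher in both Cas9 libraries than in both dCas9 libraries, and the footprint sums of the Cas9 and dCas9 libraries overlap in each complex.

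Base composition moved with the mRNA differences at 72 h. The log2 mRNA difference correlated with coding GC content at a Spearman rho of -0.46 over the members and -0.41 over all tested genes. The 4 mRNAs that rose had a coding GC content of 46.4 to 49.0% and the 4 that fell one of 50 to 68.3%. Once the GC trend over all genes was removed, 34 members rose and 5 fell, beside 5.66% of all tested genes increased and 12.4% decreased, 74 of 83 lay above 0 and the median was 0.18, against 0.01 over all. The split of 4 and 4 thus depends on this setting, and the part of base composition in it was not tested further.

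Other mitochondrial genes are read against the same shares of all tested genes in mRNA at 72 h, 0.422% increased and 5.2% decreased. Of 51 tested assembly factors of the complexes, 45 lay above 0 in mRNA at 72 h with a median log2 of 0.14, and 1 rose, NDUFAF4 (0.40, adjusted p = 0.087, edgeR), while 0 fell. Of 78 mitochondrial ribosomal protein genes 62 lay above 0 (median 0.14), 0 rose and 4 fell, a share close to that of all tested genes, MRPL12 furthest at -1.23 with a translational efficiency of 1.18 (adjusted p = 0.040). Of 12 mobile carriers and exchangers, SLC25A6, an ADP/ATP carrier, fell by 0.34 on the log2 scale (0.055), and of 9 regulators PPRC1, a coactivator of mitochondrial gene expression, fell by 0.37 (0.097). Of the 13 subunits of mitochondrial DNA 5 were tested at 72 h, all below 0 with a median of -0.55, and MT-CO2 (-0.95) and MT-ATP6 (-0.76) fell. These last counts go opposite to the majority of the nuclear-encoded members, and the difference itself was not tested. In translational efficiency MT-CO2 (1.29, adjusted p = 0.0087, edgeR) and MT-ATP6 (1.25, 0.040) rose at 72 h, beside 0.698% of all tested genes. Their mean footprints were 923 and 385 CPM in Cas9 against 735 and 274 CPM in dCas9 cells, differences that were not called. At 36 h 0 genes of these lists were called in footprints, mRNA or translational efficiency.

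The other core subunits did not pass the test. Among NDUFS1, NDUFV1, NDUFS3, NDUFAB1, UQCRC1, UQCRFS1, CYC1, COX4I1, COX5A, COX5B, ATP5F1B, ATP5F1C and ATP5IF1, the log2 mRNA difference at 72 h ran from -0.19 in COX5A, a matrix-side subunit of complex IV, to 0.25 in NDUFAB1, and the footprint difference from -0.06 in COX5B to 0.10 in ATP5F1C. ATP5IF1, which inhibits ATP hydrolysis by ATP synthase, was at 0.01 in mRNA and 0.09 in footprints.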

How the data were processed

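Ribosome footprints and mRNA were measured in 17 libraries of HEK293 cells. The authors deposited raw read counts per transcript, made with fp-count over the coding region after alignment to GRCh38 (hisat2 with GENCODE 22 at 36 h, tophat with GENCODE 25 at 72 h; the labels' processing notes list HISAT2 2.1.0). The RNA was rRNA-depleted total RNA in stranded libraries. How reads that match several genes were handled is not given in the sources used here. The deposited tables also give the counted coding length in codons, the coding length less 20 codons at 36 h in 97.3% of the transcripts kept and less 19 at 72 h in 97.1%. The Cas9 footprint library b of 36 h was not analysed here.

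Transcripts were matched to genes by GENCODE 44 (25338 of 26679 at 36 h and 94799 of 98334 at 72 h), and per gene the transcript with the highest summed count per time point was kept. Both library types of a time point were fitted together by group in edgeR 4.0.16 (R 4.3.3, quasi-likelihood F test, TMM, Benjamini-Hochberg over all genes tested, false discovery rate 0.1), for genes averaging 20 counts or more in each type. Translational efficiency was the interaction term. CPM is counts per 1000000 counts of the tested genes after TMM scaling, and single pairings used a prior count of 2. Fits were checked on simulated counts.

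Members and gene lists were chosen with earlier results of these data known. Named genes were core subunits, isoform families, in each Cas9 contrast up to 5 called members per direction that moved alike in every pairing or else the 2 widest each way, and the 5 highest and 5 lowest ratios. Of other lists at most 3 called genes per contrast and direction were named. COX6C and MT-CO2 were known from the earlier results.

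Alternatives were DESeq2 1.42.0, median-ratio size factors, no count minimum, each library type fitted alone, removal of the GC trend (lowess, span 0.3), mRNA libraries with a matched footprint library, the transcripts of 36 h, a replicate block, and each library left out. At 36 h letters mark 1 lysate split between both assays. The deviations of paired libraries from their group means correlated at 0.065 and 0.017 in Cas9 and 0.011 in dCas9 cells over 9016 genes.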

Additional observations from a re-analysis of the deposited data

Results flagged for a closer look

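The footprint differences of 2 small ATP synthase subunits pointed in opposite directions at 36 h and 72 h, with every pairing of a Cas9 and a dCas9 library on 1 side at each time point. ATP5F1E, the epsilon subunit, was at -0.77 on the log2 scale at 36 h and at 0.22 at 72 h. ATP5ME, the e subunit of the membrane part, was at 0.40 at 36 h and at -0.24 at 72 h. None of the 4 values passed the false discovery rate in edgeR, and the difference between the time points was not tested. The pattern was looked for only among the named genes, which in footprints were named for the widest differences. Its share among all members or all tested genes was not counted, so it is not read as particular to these genes. The time points also differ in guide synthesis and aligner, which cannot be told apart from time. Groups of 2 or 3 libraries were too small to test for a single distant library.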

How the results depend on the processing

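Of 649 values of named genes under an alternative, 599 kept their direction and side of the threshold, 46 kept the direction but no longer passed, 4 came to pass and 0 changed direction; SDHC mRNA at 72 h passed in all 16, from -1.38 to -0.78, and SDHC translational efficiency no longer passed in 5 of 15. The 8 mRNAs called at 72 h became 39 with the GC trend removed (34 up, 5 down), 2 with mRNA libraries fitted alone (COX6C and SDHC) and 1 to 18 with 1 library left out: 1 without Cas9 mRNA a, 4 without b, 17 and 18 without dCas9 mRNA a and b, and 3 without footprint library dCas9 e or f. The 1 member called in translational efficiency at 72 h became 3 by DESeq2, 10 with the GC trend removed, 2 with median-ratio size factors, and 0 to 11 with 1 library left out: 0 without any 1 of the 4 footprint libraries or Cas9 mRNA a, 2 without Cas9 mRNA b or dCas9 mRNA a and 11 without dCas9 mRNA b. The 0 calls in footprints at 36 h ranged from 0 to 4 with 1 library left out (1 without Cas9 c, 4 without dCas9 d), those in translational efficiency at 36 h from 0 to 1 (1 without footprint dCas9 d), and those in mRNA at 36 h and footprints at 72 h remained 0. The 46 ratio calls at 36 h ranged from 30 (without mRNA dCas9 d) to 50 and the 63 at 72 h from 53 to 67. The cause of these shifts was not tested. With the GC trend removed, 3 members were called up and 7 down in translational efficiency at 72 h, beside 4.36% and 0.982% of all tested genes. Counts given here without a share of all tested genes describe the processing and are not read as results about the members. With the replicate block, the ratio calls at 36 h were 37 and translational efficiency at 36 h had 0 calls, from paired lysates. At 72 h letters are shared only as labels, with correlations of deviations of -0.14 in mRNA and 0.011 in footprints, and the block gave 7 calls in mRNA, 1 in translational efficiency and 0 in footprints. The crossed block, added after the data were seen, gave 13 in mRNA and 2 in translational efficiency. No paired analysis was possible for the 72 h ratio because footprint and mRNA letters there do not match. In the shallowest footprint library, dCas9 e at 36 h, a floor of 3 counts is 4.83 CPM.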
